A study of Mus musculus with 8 samples.

Results

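The proteasome is the barrel-shaped protease that degrades ubiquitin-tagged proteins, and 43 genes of the count table carry a symbol of its subunit families, Psma, Psmb, Psmc, Psmd or Psme followed by digits only, out of 39388 gene symbols in all. RNA-seq was made from hanging-drop spheroids of 4T1, a mouse mammary carcinoma line, with 4 libraries of cells that express a hairpin RNA against Tlr7 (shTlr7) and 4 libraries of cells that express a scrambled hairpin (shCtrl). Both groups were transduced with lentivirus and kept in medium with serum, and the labels describe a single Tlr7 hairpin. The question of the design is which transcripts differ once Tlr7, an endosomal receptor for single-stranded RNA, is targeted. Nothing in the labels ties the 4 libraries of a group to separate cultures, so each p-value speaks of the spread among these libraries alone, which may be technical. In bulk RNA, fewer cells of a type and less RNA per cell cannot be told apart.

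The core of the proteasome is a stack of rings, with outer rings of alpha subunits (Psma genes) that gate the entry and inner rings of beta subunits (Psmb genes) that hold the proteolytic sites. Caps built of ATPases (Psmc genes) and other subunits (mainly Psmd genes) recognise, unfold and feed the substrate, and alternative activators (Psme genes) open the gate without ATP. In most cells the catalytic beta subunits are Psmb6, Psmb7 and Psmb5. Interferon, above all interferon-gamma, and constitutive expression in lymphoid cells replace them by Psmb9, Psmb10 and Psmb8, and raise the activator subunits Psme1 and Psme2. That form, the immunoproteasome, changes the peptides offered to MHC class I. Transcription of the standard subunits responds to the factor NRF1 (Nfe2l1), which rises in activity when proteasomes are impaired.

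Library totals ranged from 18.1 to 93.8 M counts in shTlr7 and from 19.2 to 51.5 M in shCtrl. Tlr7 itself had 0, 4, 3 and 0 counts in shTlr7 replicates 1 to 4 and 2, 3, 2 and 2 counts in shCtrl replicates 1 to 4, too few for the filter on low counts and too few to check the labels. Of the epithelial markers, the keratin Krt18 had 1018 ± 78 CPM in shTlr7 and 1414 ± 41.8 CPM in shCtrl (SD, n = 4 each; CPM are counts scaled to library totals, with TMM factors unless said otherwise), and Krt5 was at 0 in all libraries. Krt8, Krt14, Krt18 and Krt19 were lower in shTlr7, with log2 fold changes of -0.38, -3.51, -0.47 and -0.69. Epcam (0.14) and Cdh1 (0.20) were higher, and the libraries of Cdh1 did not overlap. Of 22 markers of immune, endothelial and stromal cells, 12 had under 10 counts over all 8 libraries, and 8 had none, among them Cd8a, Ms4a1, Nkg7, Adgre1, Lyz2, H2-Aa and H2-Ab1, although H2-Aa and H2-Ab1 have further rows in the table. Their summed level was 78.0 to 94.6 CPM in shTlr7 and 63.0 to 68.2 CPM in shCtrl, on library totals without TMM scaling. Pdgfra and Cd68, which cancer cells can also express, had the highest counts of the list, and Cd68 was higher in shTlr7 (log2 fold change 0.71 ± 0.10 SE, edgeR adjusted p = 1.22e-04). The macrophage receptor gene Csf1r was lower, at 0.24 ± 0.056 CPM in shTlr7 and 1.14 ± 0.20 CPM in shCtrl (SD, n = 4 each; log2 fold change -2.17 ± 0.24 SE, edgeR adjusted p = 4.17e-06). The remaining markers with 10 or more counts did not pass the filter and had more raw counts in shTlr7. Summed over shTlr7 and over shCtrl, without scaling to library totals, Itgam had 38 and 1 counts, Itgax 19 and 1, and Cd4 17 and 3. Pecam1 had 62 and 20, Cdh5 11 and 2, Ptprc 33 and 16, and Flt3 18 and 11. The part of these markers in the results below was not tested.

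Over all 13342 genes that passed the filter, 56% were called at an adjusted p under 0.05 by edgeR's quasi-likelihood test, 28.7% as higher and 27.2% as lower in shTlr7. Of the 43 subunit genes, 37 passed the filter. Among these 37, 8 were higher, 7 were lower and 22 were not called, so that 40.5% were called. The libraries of the groups did not overlap for 14 of the 37 (37.8%), 8 higher and 6 lower in shTlr7, against 49.8% of all genes tested, 25.6% higher and 24.1% lower. The changes were small. The median absolute log2 fold change was 0.11 for the subunits and 0.23 for all genes tested, 32 of the 37 moved by less than 0.2, and 2, Psmb5 and Psme3, moved by at least 0.3.

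**Figure D1:**
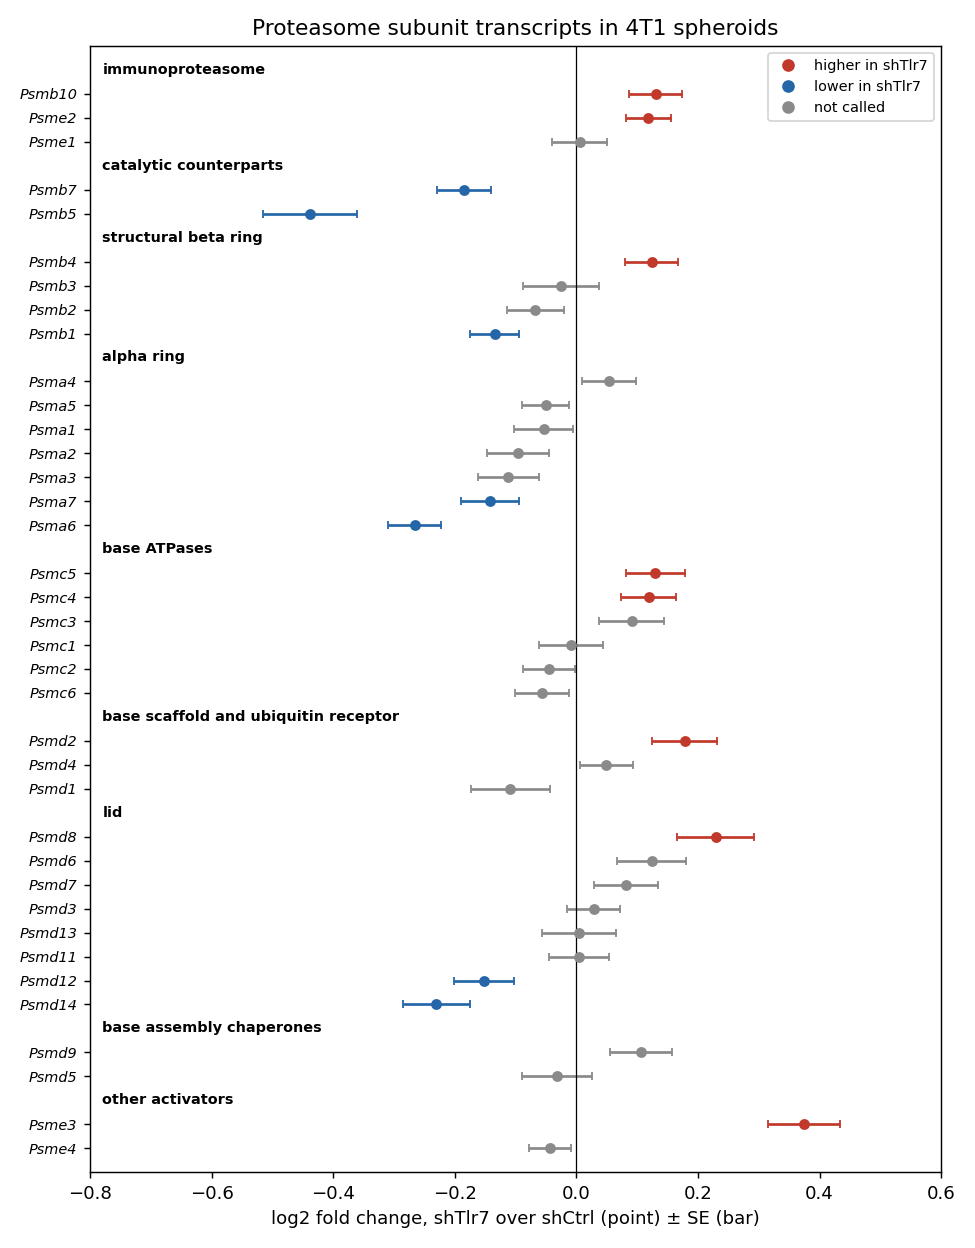
Log2 fold change of shTlr7 over shCtrl (horizontal axis) for the 37 tested subunit genes, grouped by role, with the standard error as a bar and colour for the call at an adjusted p under 0.05. Points lie between -0.44 (Psmb5) and 0.37 (Psme3), with 8 called higher, 7 called lower and 22 not called.

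Sequence stretches before the transcription start are shown for Psme1 and Psme2, the partners of the interferon-induced activator, for Psme3, the subunit gene with the largest rise, and for Psmb5, the one with the largest fall. Each is the 250 bases before a RefSeq start on GRCm38.p6, given on the strand of the gene (Psme1 chr14:55578244-55578493, plus strand; Psme2 chr14:55591102-55591351, minus strand; Psme3 chr11:101315963-101316212, plus strand; Psmb5 chr14:54617996-54618245, minus strand). Capitals mark matches to any of 4 motifs searched on both strands, the core of the interferon-stimulated response element (GAAA, any 2 bases, GAAA), the gamma-activated site TTCNNNGAA, the core of the antioxidant response element bound by NRF1 and NRF2 TGACNNNGC, and the box CCAAT.
Psme1: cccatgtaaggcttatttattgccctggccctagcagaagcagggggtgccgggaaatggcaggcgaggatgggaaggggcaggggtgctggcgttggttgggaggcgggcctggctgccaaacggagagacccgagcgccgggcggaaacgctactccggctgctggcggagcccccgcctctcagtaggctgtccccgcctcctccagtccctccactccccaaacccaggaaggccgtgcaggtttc
Psme2: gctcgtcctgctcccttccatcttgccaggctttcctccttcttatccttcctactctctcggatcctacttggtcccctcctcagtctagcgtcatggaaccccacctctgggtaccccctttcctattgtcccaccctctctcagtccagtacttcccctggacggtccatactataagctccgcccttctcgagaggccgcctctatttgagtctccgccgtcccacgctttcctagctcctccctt
Psme3: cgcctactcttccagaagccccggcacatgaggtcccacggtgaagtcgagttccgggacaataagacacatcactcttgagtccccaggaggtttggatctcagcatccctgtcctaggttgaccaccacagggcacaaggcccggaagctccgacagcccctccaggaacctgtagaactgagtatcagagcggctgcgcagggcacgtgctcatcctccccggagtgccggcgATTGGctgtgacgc
Psmb5: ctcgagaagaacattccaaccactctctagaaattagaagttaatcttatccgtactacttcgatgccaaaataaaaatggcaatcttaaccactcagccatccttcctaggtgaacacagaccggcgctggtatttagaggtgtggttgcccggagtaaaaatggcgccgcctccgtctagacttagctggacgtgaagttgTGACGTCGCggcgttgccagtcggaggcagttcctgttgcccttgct
The Psmb5 stretch held an antioxidant response element core and the Psme3 stretch a CCAAT box in reverse, while the Psme1 and Psme2 stretches held none of the 4 motifs. Another Psme2 window, before a different RefSeq start (chr14:55591022-55591271), is not shown and also held none. Windows of these 250 bases were at hand for 36 of the 43 subunit genes and for 27025 genes in all. A gene counted as a match if any of its windows matched. The antioxidant response element core was in 5 of the 36 (13.9%) and in 11.5% of all genes, and the interferon-stimulated response element core in 3 of the 36 (8.33%; Psmb3, Psmd4 and Psmd9) and 3.46% of all genes. The gamma-activated site was in 1 (2.78%, Psmb8) against 8.13% of all genes, and the CCAAT box in 14 (38.9%) against 37.5%. Neither interferon motif was in the windows of the 8 subunit genes called higher or of the 5 called lower that had a window. Motifs may overlap each other, and a match is a description of letters only.

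Of the 5 immunoproteasome genes, the catalytic subunits Psmb8 and Psmb9 could not be followed in these counts. Psmb8 (RefSeq GRCm38.p6, as for all coordinates here; chromosome 17, 34198195 to 34201454) was listed at 0 in all 8 libraries over its 4 rows in the table. Psmb9, which lies close to it (34182030 to 34187330), had 1, 9, 2 and 1 counts in shTlr7 and 0, 2, 0 and 1 in shCtrl, a ratio of 2.84 once pooled and set against library totals (95% exact interval 0.782 to 15.6; p = 0.124 by a two-sided exact binomial test, for counting error alone). Both have 3 further rows with a copy suffix, all at 0. The same held for 2 subunits that all cells are known to use or make widely. Psmb6, the constitutive partner of Psmb9, had 1 count in all, and the cap chaperone Psmd10 had none, each with 1 further row. Of protein-coding symbols with more than 1 row, 687 of 1131 (60.7%) had under 10 counts over all rows and libraries, against 35.3% of 20752 with 1 row. A listed 0 for these 4 genes sets no limit on their RNA. The peptide transporter genes Tap1 and Tap2, neighbours of Psmb9 and Psmb8, were also at 0 over 4 rows each. The other untested subunits were the germ-cell subunit Psma8, at 0 in a single row, which allows up to 0.166 CPM in the shallowest library (3 counts), and the thymus subunit Psmb11, with 2 counts in shTlr7 and 5 in shCtrl.

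Psmb10, the remaining immunoproteasome protease (chromosome 8, 105935728 to 105938392), rose slightly. It had 75.5, 79.6, 75.9 and 73.0 CPM in shTlr7 replicates 1 to 4 and 69.5, 69.4, 67.3 and 71.9 CPM in shCtrl replicates 1 to 4. Every shTlr7 library was above every shCtrl library, by a narrow margin. The log2 fold change was 0.13 ± 0.04 (SE; edgeR adjusted p = 0.0215). The call was lost without shTlr7 replicate 2 (edgeR adjusted p = 0.0682), without shCtrl replicate 2 (0.0505) and without shCtrl replicate 3 (0.0758).

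Of the interferon-induced activator pair, Psme2 was called and Psme1 was not. Psme2 (PA28 beta; chromosome 14, 55587440 to 55591101) had 187, 193, 180.4 and 187 CPM in shTlr7 and 173, 173, 169.8 and 173 CPM in shCtrl. The groups did not overlap, and the log2 fold change was 0.12 ± 0.04 (SE; edgeR adjusted p = 0.0141; 0.0503 without shCtrl replicate 3). Its partner Psme1 (PA28 alpha; 55578494 to 55581527), which assembles with it in 1 ring, had 218, 228, 215 and 229.7 CPM in shTlr7 and 220.3, 212, 217 and 239 CPM in shCtrl. These groups overlapped, shCtrl replicate 4 was the highest of all 8 libraries, and the log2 fold change of 0.0051 ± 0.05 (SE) was not called (edgeR adjusted p = 0.932), with an approximate 95% interval from -0.084 to 0.094. The difference between the partners was not tested. In Psme2, 51.7% of the 75-base windows of the principal transcript occur in another gene, mostly its copy Psme2b, which was listed at 0, and its counts are therefore uncertain, where Psmb10 shares 0% of its windows.

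Psmb5 and Psmb7, the proteases that Psmb8 and Psmb10 replace, were lower in shTlr7. Psmb7 thus went against Psmb10, while Psmb8 gave no direction to set beside Psmb5. Psmb5, the chymotrypsin-like subunit that Psmb8 replaces (chromosome 14, 54614120 to 54617995), had 16.3, 15.7, 19.7 and 17.0 CPM in shTlr7 and 24.2, 22.7, 24.7 and 21.6 CPM in shCtrl. All shTlr7 libraries lay below all shCtrl libraries, and the log2 fold change was -0.44 ± 0.08 (SE; edgeR adjusted p = 2.81e-04), the largest fall among the subunits. Its level per kilobase of transcript was low beside the other core subunits, 19.1 CPM per kb in shTlr7 and 25.9 CPM per kb in shCtrl, and 40.0% of its windows occur in other genes. Psmb7, the trypsin-like subunit that Psmb10 replaces (chromosome 2, 38588046 to 38643952), had 125, 130.4, 132 and 122 CPM in shTlr7 and 150.0, 149.6, 145 and 135 CPM in shCtrl. Again the groups did not overlap, with a log2 fold change of -0.19 ± 0.05 (SE; edgeR adjusted p = 0.00321; -0.077 and 0.134 when scaled by library size alone). Exons of Nek6 overlap 34.9% of the Psmb7 transcript, and Nek6 had a log2 fold change of -0.059 (edgeR adjusted p = 0.401).

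**Figure D2:**
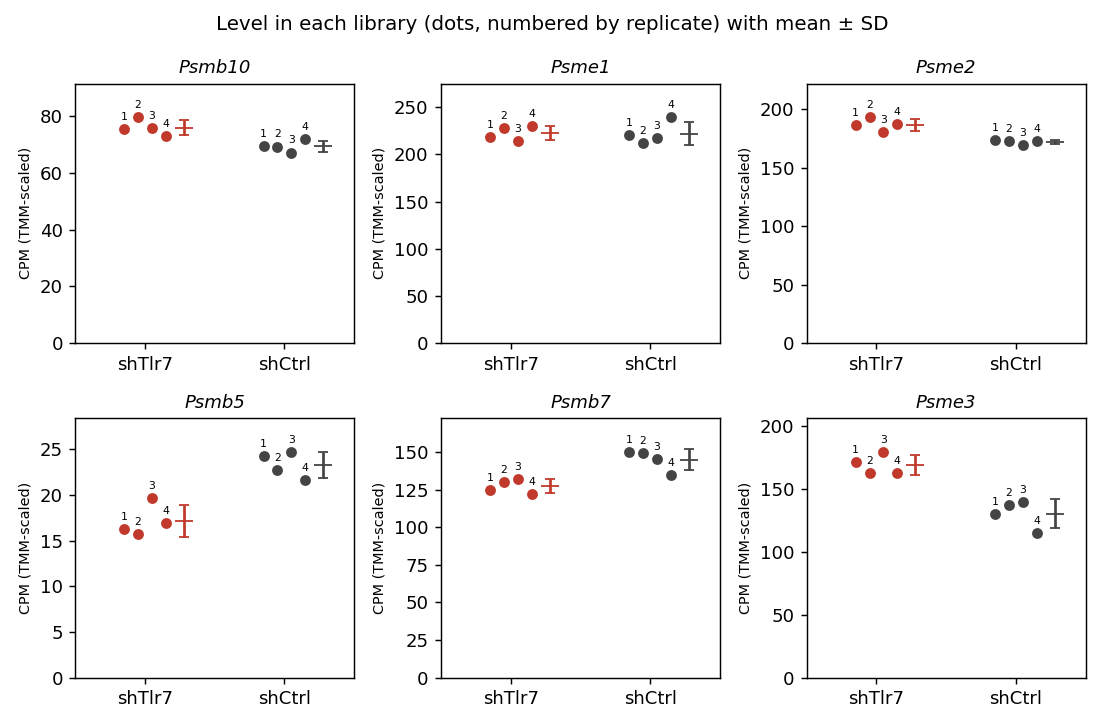
TMM-scaled CPM (vertical axis, from 0) in each shTlr7 and shCtrl library for the 3 tested immunoproteasome genes, 2 catalytic counterparts and Psme3, with dots numbered by replicate and the mean ± SD beside them. Psmb10, Psme2 and Psme3 lie higher and Psmb5 and Psmb7 lower in all shTlr7 libraries, and Psme1 overlaps.

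Of the 3 exchange pairs, only Psmb10 with Psmb7 could be computed, since Psmb8, Psmb9 and Psmb6 did not pass the filter. The log2 ratio of Psmb10 to Psmb7 within a library (CPM plus a pseudocount of 0.5) was -0.72, -0.71, -0.80 and -0.74 in shTlr7 and -1.10, -1.10, -1.10 and -0.90 in shCtrl. All shTlr7 libraries were above all shCtrl libraries, and shCtrl replicate 4 stood closest to shTlr7. The means were -0.74 ± 0.04 in shTlr7 and -1.05 ± 0.10 in shCtrl (SD, n = 4 each), a difference of 0.31 or 1.24-fold (exact permutation test, two-sided p = 0.0286, the smallest that 4 against 4 allows; 1 pair computed, adjusted p = 0.0286). Psmb10 was higher and Psmb7 lower in every shTlr7 library, so this p follows from those results and adds no separate evidence. Scaling by library size alone gave 0.31 as well, since scaling cancels in a ratio apart from the pseudocount. The Psmb7 side of the ratio carries the Nek6 overlap named above.

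**Figure D3:**
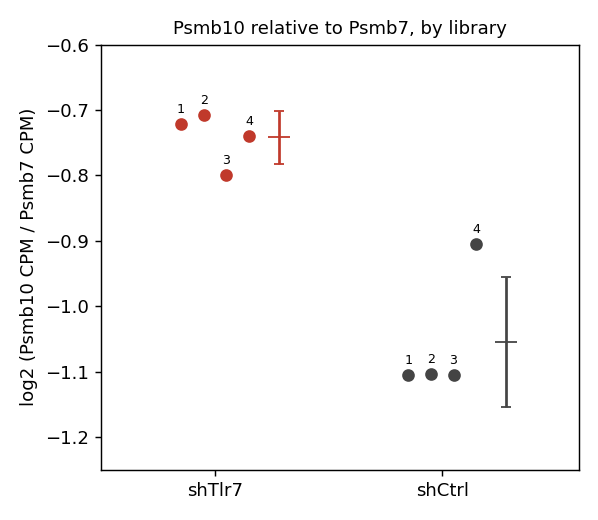
Log2 ratio of Psmb10 to Psmb7 CPM (vertical axis) in each shTlr7 and shCtrl library, with dots numbered by replicate and the mean ± SD beside them. The shTlr7 libraries lie between -0.80 and -0.71 and the shCtrl libraries between -1.10 and -0.90.

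As sets, the tested immunoproteasome genes (3 of 5) had 2 higher and 0 lower members with a median log2 fold change of 0.12. The tested constitutive genes (34 of 38) had 6 higher and 7 lower members with a median of -0.029, beside 0.0056 for all genes tested. The shares called were 66.7% of the 3 and 38.2% of the 34, against 56% of all genes tested. By absolute log2 fold change among all genes tested, Psme1 stood at percentile 1.17, Psme2 at 28.2 and Psmb10 at 30.8. Scaling by library size alone raised the median of all genes to 0.114 and those of the sets to 0.23 and 0.080. The constitutive counts were then 13 higher and 2 lower of 34, beside 5503 and 2483 of all 13342 genes tested. The mean log2 CPM of the 3 minus that of the 34 was 0.17, 0.20, 0.052 and 0.17 in shTlr7 and 0.032, -0.028, -0.028 and 0.22 in shCtrl. The highest of these 8 values was that of shCtrl replicate 4, so the groups overlapped, and the values are given as a description. The 3 genes together made up 8.64 ± 0.38% of the summed CPM of all tested subunits in shTlr7 and 8.28 ± 0.69% in shCtrl.

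The rest of the core had 3 lower and 1 higher of 11 tested genes, beside 27.2% lower and 28.7% higher of all genes tested. With scaling by library size alone it had 1 lower and 2 higher, beside 2483 lower and 5503 higher of all 13342 genes tested. Without shCtrl replicate 4 it had 6 lower and 0 higher, beside 3832 and 4010 of 13646. The alpha ring had 2 lower and 0 higher of 7 genes, and its log2 fold changes had a median of -0.096. Psma6 (chromosome 12, 55384222 to 55418459) had 171, 176, 182 and 169 CPM in shTlr7 and 206, 219.6, 216 and 198 CPM in shCtrl, without overlap, and a log2 fold change of -0.27 ± 0.04 (SE; edgeR adjusted p = 1.61e-04). Psma7, whose libraries overlapped, had a log2 fold change of -0.14 (edgeR adjusted p = 0.0222). The call of Psma7 was lost without shTlr7 replicate 1 or 2 and without shCtrl replicate 1, 2 or 3 (edgeR adjusted p from 0.0577 to 0.0785), and with scaling by library size alone (-0.033, edgeR adjusted p = 0.565). It was also lost with no filter on low counts (-0.12, edgeR adjusted p = 0.0615). The 5 not called, Psma1 to Psma5, had log2 fold changes from -0.11 to 0.054. Among the 4 non-catalytic beta subunits, Psmb1 was lower (-0.13, edgeR adjusted p = 0.0120; -0.026 and 0.583 when scaled by library size alone) and Psmb4 higher. The call of Psmb1 was also lost with no filter on low counts (-0.11, edgeR adjusted p = 0.0864). Psmb4 had 208, 213, 219 and 211 CPM in shTlr7 and 201, 196, 204 and 181 CPM in shCtrl, and a log2 fold change of 0.12 ± 0.04 (SE; edgeR adjusted p = 0.0278). That call was lost without shTlr7 replicate 3 (0.0606), shCtrl replicate 2 (0.0567) or shCtrl replicate 4 (0.0648). Psmb2 and Psmb3 had log2 fold changes of -0.068 and -0.026 and were not called.

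In the cap, 4 of 19 tested genes were higher and 2 lower, so that 31.6% were called, against 56% of all genes tested. This balance was not stable. Without shCtrl replicate 4 it was 2 higher and 3 lower, beside 4010 and 3832 of all 13646 genes tested. With limma-voom it was also 2 and 3, beside 4348 and 4179 of 13342. Without shTlr7 replicate 1 it was 2 and 2, beside 3690 and 3401 of 13642. Without shTlr7 replicate 3 it was also 2 and 2, beside 3642 and 3351 of 13305. Scaling by library size alone gave 10 higher and 0 lower, beside 5503 and 2483 of 13342. The scaffold subunit Psmd2, which binds ubiquitin receptors and shuttle factors, had 399.8, 405, 430.4 and 389 CPM in shTlr7 and 363, 376, 377 and 321 CPM in shCtrl. All shTlr7 libraries were higher, and the log2 fold change was 0.18 ± 0.05 (SE; edgeR adjusted p = 0.0119). The lid subunit Psmd8 had 166, 159, 178 and 153 CPM in shTlr7 and 145, 141, 150.4 and 123 CPM in shCtrl, with a log2 fold change of 0.23 ± 0.06 (SE; edgeR adjusted p = 0.00765). Its groups did not overlap either.

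Of the 6 base ATPases, which unfold the substrate, Psmc5 and Psmc4 were higher and none was lower (33.3% called, against 56% of all genes tested). Psmc5 had 127, 121, 134 and 122 CPM in shTlr7 and 119, 118, 118 and 106 CPM in shCtrl, without overlap, with a log2 fold change of 0.13 ± 0.05 (SE; edgeR adjusted p = 0.0353). Psmc4 was at 0.12 (edgeR adjusted p = 0.0366). Both calls were close to the threshold. They were lost for Psmc5 without shTlr7 replicate 1 or 3 or shCtrl replicate 3 or 4 (edgeR adjusted p from 0.0537 to 0.0918) and for Psmc4 without shTlr7 replicate 1 or 3 or shCtrl replicate 1, 2 or 4 (0.0580 to 0.0935). The call of Psmc5 was also lost with DESeq2 (DESeq2 adjusted p = 0.0507) and limma-voom (limma-voom adjusted p = 0.0525). That of Psmc4 was also lost with limma-voom (limma-voom adjusted p = 0.0857) and without both libraries numbered 4 (edgeR adjusted p = 0.076). Psmc1, Psmc2, Psmc3 and Psmc6 had log2 fold changes from -0.056 to 0.091.

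Among the lid genes, the deubiquitinase Psmd14 and the subunit Psmd12 fell. Psmd14, which removes ubiquitin chains from the substrate (chromosome 2, 61711694 to 61800376), had 122, 133, 136 and 128 CPM in shTlr7 and 150.1, 163, 159.8 and 137 CPM in shCtrl. The highest shTlr7 library was just below the lowest shCtrl library, and the log2 fold change was -0.23 ± 0.06 (SE; edgeR adjusted p = 0.00284; -0.12 and 0.0631 when scaled by library size alone). Psmd12 had 161, 166, 172 and 157 CPM in shTlr7 and 187, 191, 185 and 166 CPM in shCtrl. These overlapped through shCtrl replicate 4, with a log2 fold change of -0.15 ± 0.05 (SE; edgeR adjusted p = 0.0170; 0.0506 without shCtrl replicate 1 and 0.0583 without shCtrl replicate 2; -0.043 and 0.435 when scaled by library size alone). The lid genes Psmd3, Psmd6, Psmd7, Psmd11 and Psmd13, the base genes Psmd1 and Psmd4 (a ubiquitin receptor) and the base chaperones Psmd5 and Psmd9 were not called, with log2 fold changes from -0.11 to 0.12. Of these, the libraries of Psmd9 did not overlap and were higher in shTlr7 (log2 fold change 0.11, edgeR adjusted p = 0.0886).

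Psme3, which forms the nuclear activator PA28 gamma and is not induced by interferon-gamma (chromosome 11, 101316213 to 101323537), rose most of all subunits. It had 171, 163, 179 and 163 CPM in shTlr7 and 129.9, 138, 139 and 115 CPM in shCtrl. The groups did not overlap, and the log2 fold change was 0.37 ± 0.06 (SE; edgeR adjusted p = 1.18e-04), or 1.30-fold. It kept its call under each alternative tried, between 0.32 and 0.48. The other activator, Psme4 (PA200), was lower in all shTlr7 libraries by a small margin, with a log2 fold change of -0.043 that was not called (edgeR adjusted p = 0.309).

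**Figure D4:**
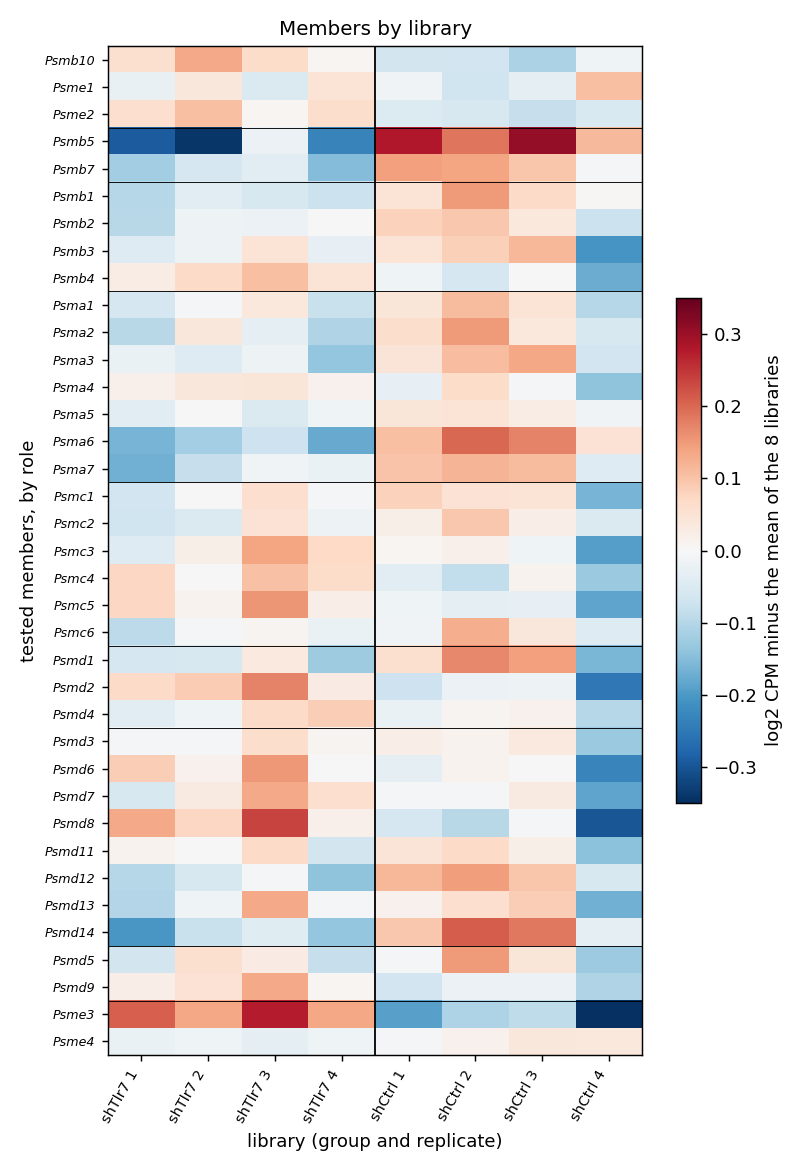
Log2 CPM of each tested subunit gene (rows, by role) in each library (columns, shTlr7 then shCtrl), minus its mean over the 8 libraries; red is above and blue below that mean. Psmb5, Psma6 and Psmd14 are lower and Psme3 is higher across shTlr7, and shCtrl replicate 4 is pale or blue for most constitutive genes.

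One library moved many of the constitutive genes together. Replicate 4 was the lowest of the 4 shCtrl libraries for 33 of 34 tested constitutive genes, where it was the lowest for 37.4% of all genes tested, and it was the lowest for 0 of the 3 immunoproteasome genes. In shTlr7, replicate 3 was the highest for 27 of the 37, and the matching share over all genes tested was not computed. The summed CPM of the 34 genes was 5021, 5126, 5356 and 5046 in shTlr7 and 5208, 5369, 5311 and 4730.3 in shCtrl. The sums overlapped and averaged 5137 ± 153 and 5154 ± 290.0 CPM (SD, n = 4 each). Without shCtrl replicate 4, 3 constitutive genes were higher and 11 lower, beside 4010 higher and 3832 lower of all 13646 genes tested. Without both libraries numbered 4, 5 were higher and 11 lower, beside 4193 and 4034 of 13415. Psma2, Psma3, Psmb2 and Psmd1 joined the falls under both settings. Without shTlr7 replicate 3, 3 constitutive genes were higher and 7 lower, beside 3642 and 3351 of 13305. The cause was not tested.

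Levels per kilobase of the principal transcript, in CPM per kb, ranged over the tested subunits from 13.1 in shTlr7 and 12.2 in shCtrl for the chaperone Psmd9 to 200.3 in shTlr7 for Psme1 and 213 in shCtrl for Psma7. Next below Psma7 in shCtrl came Psma6 (201 ± 9.48), Psme1 (199.7 ± 10.7) and Psme2 (179 ± 1.73 CPM per kb). Psma6 and Psme1 differed by less than their own spread. In shTlr7 the order at the top was Psme1 (200.3 ± 6.70), Psme2 (194 ± 5.42) and Psma7 (193 ± 9.29 CPM per kb), whose ranges of mean ± SD overlapped. Psmb10, at 58.0 ± 2.08 CPM per kb in shTlr7 and 53.0 ± 1.46 in shCtrl, stood below Psmb7, at 109.9 ± 4.08 in shTlr7 and 125 ± 5.97 in shCtrl. The order depends on which transcript a gene uses and on reads shared with other genes, so it is a rough guide.

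Genes that act on the proteasome without matching the symbol rule changed in both directions, 4 higher and 7 lower of 19 tested. The share called was 57.9%, close to the 56% of all genes tested. The ubiquitin shuttle Ubqln1 had 195 ± 7.13 CPM in shTlr7 and 248 ± 10.1 CPM in shCtrl (SD, n = 4 each; log2 fold change -0.35, edgeR adjusted p = 1.16e-05). The deubiquitinase Usp14, which trims chains at the cap, had 147 ± 5.48 CPM in shTlr7 and 188 ± 16.1 CPM in shCtrl (-0.36, edgeR adjusted p = 1.13e-04). The ligase Ube3c had 198 ± 10.7 CPM in shTlr7 and 167 ± 9.14 CPM in shCtrl (0.24, edgeR adjusted p = 9.95e-04). Of the assembly chaperones, Pomp (0.13), Psmg2 (0.17) and Psmg4 (0.27) were higher and Psmg3 (-0.27) was lower in log2 fold change, and Psmg1, with 2 rows in the table, had 2 counts in all.

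Genes of NRF1 activation and of its DNA-binding partners and relatives were mixed, with 3 higher and 6 lower of 12 tested. The share called was 75%, against 56% of all genes tested. Nfe2l1 itself was lower (log2 fold change -0.20, edgeR adjusted p = 0.00133). Ngly1, the deglycosylating enzyme that processes NRF1 to its active form, had 21.3 ± 1.29 CPM in shTlr7 and 10.97 ± 0.99 CPM in shCtrl (0.95, edgeR adjusted p = 2.29e-07). Nfe2l3, a related factor, had 18.4 ± 0.51 CPM in shTlr7 and 41.3 ± 1.38 CPM in shCtrl (-1.17, edgeR adjusted p = 8.08e-10). The protease Ddi2, which cleaves NRF1, was not called (-0.11, edgeR adjusted p = 0.233). The small Maf partners went both ways, with Mafk at 0.64 and Mafg at -0.48.

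Among the interferon regulators of the immunoproteasome reported here, 6 were higher and 4 lower of 14 tested, several by more than any tested immunoproteasome gene. The shares over all genes tested were 28.7% higher and 27.2% lower. Irf9, a factor of the type I interferon response, had 107 ± 12.3 CPM in shTlr7 and 43.7 ± 4.08 CPM in shCtrl (SD, n = 4 each; log2 fold change 1.29, edgeR adjusted p = 2.10e-07). Stat2 was at 1.31, Irf8 at 0.89 and Nlrc5, the activator of MHC class I genes, at 0.90. Irf1, through which interferon-gamma acts on Psmb9 and its relatives, was not called (-0.13, edgeR adjusted p = 0.426). It had 163, 163, 152 and 181 CPM in shTlr7 and 163, 162, 161 and 233 CPM in shCtrl, where replicate 4 stood apart. The receptor chains Ifngr1 (-0.17), Ifngr2 (-0.37) and Ifnar2 (-0.72) and the kinase Jak2 (-0.65) were lower. Of 11 tested genes of peptide processing and loading, 4 were higher and 3 lower (63.6% called, against 56% of all genes tested). B2m, the MHC class I light chain, had 1217 ± 145 CPM in shTlr7 and 830.0 ± 22.9 CPM in shCtrl (0.55, edgeR adjusted p = 3.40e-05), and the aminopeptidase Npepps was at -0.63.

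**Figure D5:**
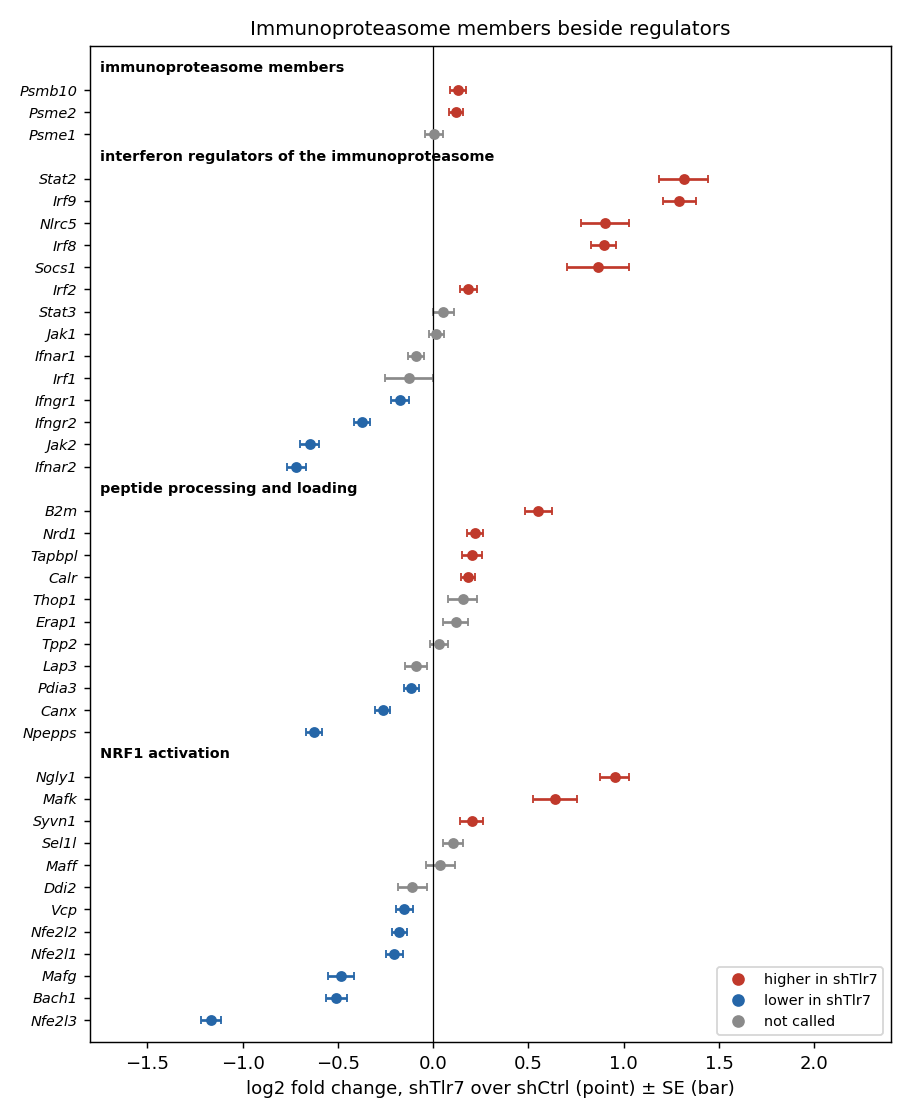
Log2 fold change of shTlr7 over shCtrl (horizontal axis) with its standard error for the 3 tested immunoproteasome genes and for genes of interferon regulation, peptide processing and loading, and NRF1 activation, coloured by call. The immunoproteasome genes lie between 0.0051 and 0.13, while Stat2 is at 1.31 and Nfe2l3 at -1.17.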

How the data were processed

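RNA-seq counts of 8 libraries were used, 4 of shTlr7 and 4 of shCtrl, grouped by sample title. The authors deposited whole-number read counts per gene with no normalization. Per the submitters' processing notes, STAR 2.7.5, DESeq2 1.32.0 and GRCm38 were used, without their roles; which program counted the reads, with which gene models and whether by strand, is not given in the sources used here, and reads of overlapping genes cannot be told apart. Rows of 1 symbol with a copy suffix were summed over the whole table (41730 rows, 2379 with a suffix).

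Genes were kept by filterByExpr, scaled by TMM and tested in R 4.3.3 with edgeR 4.0.16 (robust quasi-likelihood test, group as the only term, Benjamini-Hochberg over all 13342 genes). CPM use TMM-scaled totals. Standard errors are the log2 fold change over the square root of F, and approximate 95% intervals follow from them. The fit was tested on simulated data. Principal transcripts, shared windows of 75 bases and exon overlaps come from GENCODE M21 (GRCm38), coordinates and promoters from RefSeq GRCm38.p6. Intervals and limits on counts cover counting error only.

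Members and lists were chosen with earlier results of these data known. Named are all subunit genes, with every library given for the immunoproteasome genes, their counterparts and the 5 largest called rises and falls of the constitutive genes (counterparts included), and members of the lists, with group means for up to 4 of the lowest p. Alternatives used limma 3.58.1, DESeq2 1.42.0, other scalings and filters, and left-out libraries. No libraries agreed within sampling noise (chi-square per degree of freedom from 2.23 to 22.0). Some genes of the marker and regulator lists are not reported here.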

Additional observations from a re-analysis of the deposited data

Results flagged for a closer look

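Subunit levels in shCtrl replicate 4 stood apart from the other shCtrl libraries for 5 genes and for 1 ratio, out of 76 groups of 4 values examined, where chance flags about 1 in 20. In shCtrl replicate 4, Psma7 had 179.6 CPM (next lowest 198 CPM), Psmc1 141 CPM (next 163.5 CPM), Psmc3 157 CPM (next 178 CPM), Psmc5 106 CPM (next 118 CPM) and Psmd3 222 CPM (next 245 CPM). In the same library the log2 ratio of Psmb10 to Psmb7 was -0.90, above the next value of -1.10. This library also stood apart from the other shCtrl libraries across genes as a whole. The cause was not tested.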

How the results depend on the processing

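None of the 15 called subunit genes reversed its direction under any of 20 alternatives, and Psma6, Psmb5, Psmd8 and Psme3 kept their call in all 20. Scaling by library size alone gave 13 higher and 2 lower constitutive genes, with medians of 0.080 for constitutive and 0.23 for immunoproteasome genes, and over all genes 5503 higher and 2483 lower. It also turned these uncalled genes positive: Psma1 (0.054), Psma2 (0.013), Psma5 (0.058), Psmb2 (0.041), Psmb3 (0.083), Psmc1 (0.10), Psmc2 (0.064), Psmc6 (0.052), Psmd5 (0.076) and Psme4 (0.065). At an adjusted p under 0.01, 0 immunoproteasome genes were higher by edgeR (2 at an unadjusted p under 0.05, 2 by DESeq2 and 2 by limma-voom at an adjusted p under 0.05). At an adjusted p under 0.01, 2 constitutive genes were higher and 4 lower by edgeR, beside 2957 and 2843 of all 13342 genes tested. Leaving out members that share sequence with other genes, chosen after seeing the data, left 25 constitutive genes (5 higher, 5 lower) and 2 immunoproteasome genes (1 higher, median 0.068). Without both libraries numbered 4, 11 constitutive genes were lower, beside 4034 of all 13415 genes tested. Leaving out 1 library at a time gave 0 (shCtrl replicate 3) to 2 higher immunoproteasome genes, and 3 to 7 higher and 5 to 11 lower constitutive genes. Over all genes tested it gave 3469 to 4010 higher and 3212 to 3832 lower. The Psmb10 to Psmb7 difference with 1 library left out was 0.30 to 0.36, where 4 against 3 allows no p below 0.0571.

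Genes near 0 changed sign in other ways. Psmc1 was at 0.015 with no filter, 0.0019 in thinned libraries and 0.0036 with upper-quartile scaling, and Psmd5 was at 0.015 in thinned libraries. Psmd11 and Psmd13 were at -0.0029 and -0.0026 with DESeq2, -0.0028 and -0.0025 with RLE scaling, -0.022 and -0.046 with limma-voom and -0.019 and -0.043 without both libraries numbered 4. Psmd3 was at -0.0044 with limma-voom and -0.0057 without both libraries numbered 4. Psme1 was at -0.00093 with DESeq2 and -0.0013 with RLE scaling. With 1 library left out, log2 fold changes ran from -0.094 to 0.0062 for Psmb3, from -0.061 to 0.017 for Psmc1, from -0.0091 to 0.043 for Psmd3, from -0.080 to 0.015 for Psmd5, from -0.042 to 0.032 for Psmd11, from -0.049 to 0.041 for Psmd13 and from -0.019 to 0.042 for Psme1. The cause was not tested.

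With the replicate number as a block, the fit gave 4241 higher and 4075 lower genes over all, 7 higher and 10 lower constitutive genes and 2 higher immunoproteasome genes, adding calls for Psma2 (-0.096, adjusted p = 0.0372), Psma3 (-0.11, 0.0185), Psmd1 (-0.10, 0.0419) and Psmd6 (0.12, 0.0205) by edgeR, and sign flips of the numbered pairs left the Psmb10 to Psmb7 difference at 0.31 (exact p = 0.125, the smallest that 4 pairs allow). Same-numbered libraries deviated together in 3 of 4 pairs (correlations of 0.11, 0.12 and 0.38 over 13342 genes) and not in replicate 1 (-0.0013). Libraries of different numbers were not compared in this way, so whether the numbers pair the samples was not settled. The main fit has no replicate term. At these depths 3 counts correspond to 0.032 to 0.166 CPM in a library.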
